A study of Mus musculus with 8 samples.

Results

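Luminal cells of the mammary gland are separated by proteins on their surface, and 10 genes that encode such proteins or their partners were followed here in sorted luminal progenitors and sorted mature cells. They were Kit, Kitl, Itga2, Itgb3, Itga6, Itgb1, Epcam, Cd24a, Prom1 and Ly6a, taken by name, and all 10 were found among the 24594 genes of the deposited count table. RNA was sequenced from 4 libraries of c-Kit high luminal progenitors (LP) and 4 libraries of c-Kit low luminal cells, which the labels call differentiated and the study calls mature (M). All libraries came from untreated wild type C57BL/6J mice. The mice were adults aged between 12 and 20 weeks. The labels name EpCAM, CD49f, c-Kit and CD14 as the proteins of the sort. The study's general staining method lists antibodies to the same proteins, while its results name c-Kit for these fractions. Blood and endothelial cells were gated out with antibodies to TER-119, CD31 and CD45. Proteins that the labels place in the gate are encoded by 3 of the members, Kit (c-Kit), Epcam (EpCAM) and Itga6 (CD49f), so the levels of these describe the sort.

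KIT is a receptor tyrosine kinase that is activated by its ligand, stem cell factor, encoded by Kitl. In the mammary gland, KIT on the surface marks luminal progenitors, while PROM1 (CD133) and LY6A (Sca-1) are used to mark hormone-sensing mature luminal cells. Integrins are paired adhesion receptors of an alpha and a beta subunit, and EPCAM and CD24 are used to tell epithelial cells from stroma and luminal from basal cells.

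Library totals ranged from 4410049 to 7791593 counts. Levels are given in CPM (read counts relative to the TMM-adjusted library total), and folds are on the log2 scale with LP above M as positive. A gene was called where edgeR's quasi-likelihood test gave an adjusted p under 0.05 over the 12816 genes tested. Against the labels, 7 of 8 LP markers were called higher in LP and all 9 tested mature markers lower. The LP list holds Cd14, whose protein the labels name for the sort, and the mature list holds Prom1 and Ly6a. Both lists were chosen with earlier results of these data known, so this is no independent check. Mature replicate 3 stood apart: the summed LP markers reached 6405 CPM there, against 954 to 3460 CPM in the other M libraries and 51189 to 66728 CPM in LP, and it was the highest M library for 7 of the 8. It was also the highest M library for 8 of 10 basal markers, whose sum was 117 CPM there and 17.6 to 57.7 CPM in the other M libraries. Leukocyte markers summed to 38.0 to 61.5 CPM in LP and 14.9 to 45.2 CPM in M. Much of this was Cd68, at 33.7 to 52.4 CPM in LP and 7.65 to 40.7 CPM in M. Ptprc, the gene of CD45, reached at most 0.277 CPM in any library, and 0 of the 2 tested leukocyte markers were called. Of 6 pan-luminal genes, 5 were lower in LP, keratins and Cdh1 but not Epcam. The part of these levels in the results below was not tested beyond fits without that library. Fewer cells of a type and less RNA per cell cannot be told apart in such bulk libraries. Nothing in the labels says that libraries of a group came from separate animals. The study's methods speak of biological replicates but give another number of them, so p-values measure the spread between these samples.

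Of the 10 genes, 9 passed the filter on low counts, and Itgb3 did not. Of these 9, Kit was called higher in LP, and Cd24a, Prom1 and Ly6a were called lower. Over all tested genes 24.7% were called, 10.9% higher and 13.8% lower in LP. The LP and M libraries did not overlap for 3 of the 9, Kit, Cd24a and Prom1, and for 29.5% of all tested genes. The median log2 fold change of the 9 was -0.16, beside 0 for all tested genes.

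**Figure D1:**
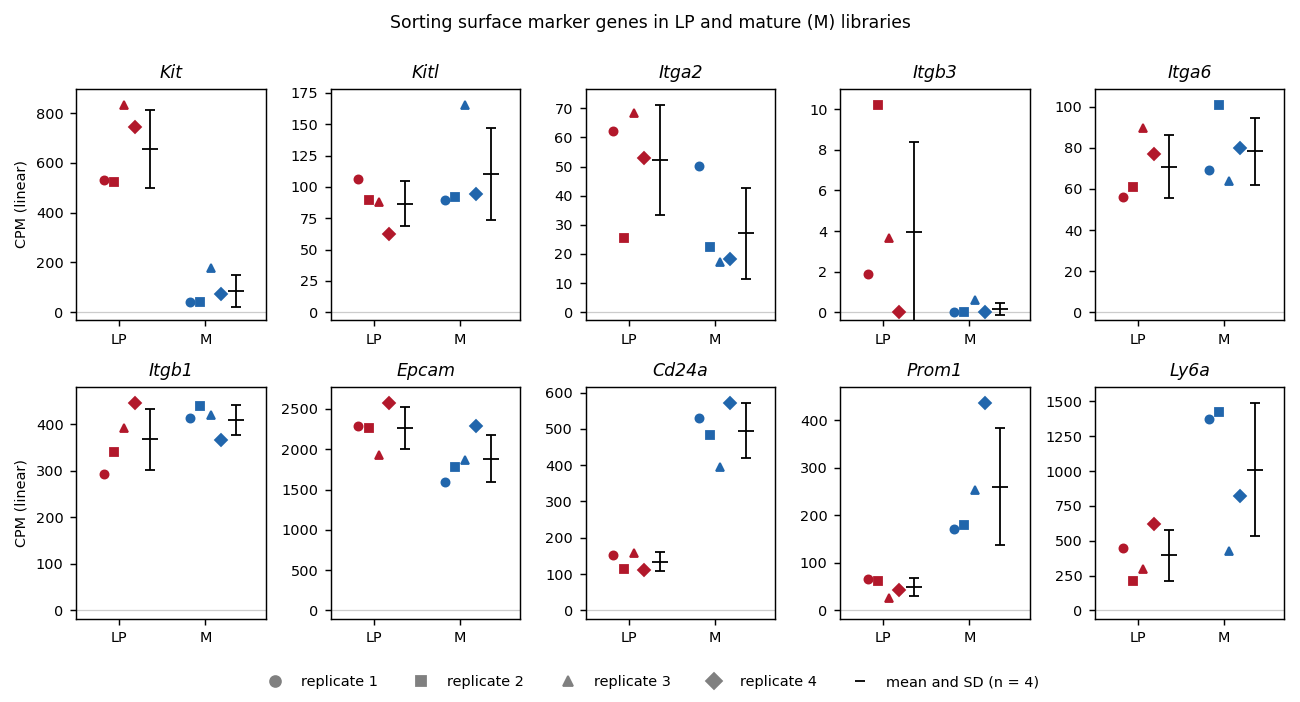
Each panel shows 1 gene, with CPM on a linear axis and a point for every LP (red) and M (blue) library; marker shapes give the replicate number and black bars the mean and SD of 4 libraries. Kit separates the groups upward in LP, Cd24a and Prom1 separate them downward, and the points of the other 7 genes overlap.

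Kit (Entrez Gene 16590, mm10 chr5:75574987-75656722) served as the check of the labels. Its level was 529, 522, 832 and 743 CPM in LP replicates 1 to 4 and 42.7, 41.2, 179 and 73.5 CPM in M replicates 1 to 4. Every LP library lay above every M library, and M replicate 3 was the highest of its group. This made a log2 fold change of 2.96 ± 0.46 (SE, n = 4 per group), or 7.79-fold, with an adjusted p of 0.0014 in edgeR's quasi-likelihood test. Kit RNA remained detectable in the c-Kit low cells, at 8.07%, 7.90%, 21.5% and 9.90% of the level in the LP library of the same number. Without M replicate 3 the log2 fold change rose to 3.67. KIT is also a protein of mast cells and melanocytes. The 8 mast cell markers summed to 2.91 to 5.48 CPM in LP and to 9.19 to 66.2 CPM in M, with the maximum in M replicate 2, the library with the least Kit. Reads of the mast cell proteases Cma1, Mcpt4 and Tpsb2 lay in M replicate 2 only. They were 0 in every LP library and equally in M replicates 1, 3 and 4. Hdc, the 1 tested mast cell marker, was called lower in LP (log2 fold change -2.07, adjusted p of 0.0057 in edgeR's quasi-likelihood test). The 5 melanocyte markers summed to 5.15 to 6.90 CPM in LP and to 8.95 to 17.1 CPM in M, most of it Pmel, while Tyrp1 had no read. Pmel, the 1 tested melanocyte marker, was also called lower (log2 fold change -1.26, adjusted p of 0.037 in the same test). Whether mast cells or melanocytes contributed to the level of Kit was not tested.

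The sequence ahead of a listed start site is shown for 3 members, the one higher in LP, the one with the most negative fold change, and the one with the highest level. RefSeq start sites on mm10 were matched for 6 of the 10 members. Each window holds the 250 bases before the first listed start, read 5′ to 3′ on the strand of the gene: Kit at chr5:75574737-75574986 on the plus strand, Prom1 at chr5:44101737-44101986 on the minus strand, and Epcam at chr17:87635729-87635978 on the plus strand. The Prom1 window lies within the gene span given below, since the annotated span begins further upstream than this start site. Capitals mark GATA or its reverse complement TATC, the core letters bound by GATA factors, and GGAA or its reverse complement TTCC, the core letters bound by ETS factors.
Kit: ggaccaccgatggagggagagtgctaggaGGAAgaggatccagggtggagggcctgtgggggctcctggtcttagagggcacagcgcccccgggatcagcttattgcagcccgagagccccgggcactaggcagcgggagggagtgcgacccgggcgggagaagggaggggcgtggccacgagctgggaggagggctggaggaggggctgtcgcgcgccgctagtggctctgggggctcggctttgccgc
Prom1: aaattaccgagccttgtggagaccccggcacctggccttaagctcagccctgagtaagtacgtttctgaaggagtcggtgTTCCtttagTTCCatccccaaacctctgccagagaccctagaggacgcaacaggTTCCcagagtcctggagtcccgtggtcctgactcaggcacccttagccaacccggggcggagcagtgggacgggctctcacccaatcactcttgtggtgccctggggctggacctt
Epcam: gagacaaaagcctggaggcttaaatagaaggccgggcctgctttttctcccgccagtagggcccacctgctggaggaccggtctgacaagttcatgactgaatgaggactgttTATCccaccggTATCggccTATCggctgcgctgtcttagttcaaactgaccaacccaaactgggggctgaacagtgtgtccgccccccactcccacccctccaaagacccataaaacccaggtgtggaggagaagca
The Kit window held 1 GGAA and no GATA, the Prom1 window 3 matches to GGAA and no GATA, and the Epcam window 3 matches to GATA and no GGAA. Prom1 has another listed start, not printed here, whose window held 1 match to GATA and 7 to GGAA. Among 32851 promoter windows of the same length, 53.6% held GATA and 93.4% held GGAA on either strand. The 3 windows were 70.8%, 59.2% and 56.4% G or C, against a median of 52.4% over all windows. These letters are a description of the windows and say nothing of which factor is bound.

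Kitl (Entrez Gene 17311, chr10:100015615-100100416) encodes the ligand of KIT. It was detected in both groups, at 106, 89.7, 88.2 and 62.3 CPM in LP and at 89.7, 92.2, 165 and 94.3 CPM in M. The groups overlapped and M replicate 3 was the highest of all 8 libraries. The log2 fold change of -0.35 ± 0.24 (SE) was not called, with an adjusted p of 0.32 in edgeR's quasi-likelihood test. Receptor RNA thus exceeded ligand RNA within every LP library, with log2 ratios of Kit to Kitl counts of 2.32, 2.54, 3.24 and 3.57. In M the log2 ratios were -1.07, -1.16, 0.11 and -0.36. These count ratios are not corrected for transcript length. The ratio differed between the groups by 3.54 on the log2 scale. Because the groups were gated on c-Kit, this ratio describes the sort, as the level of Kit does. The exact permutation test gave a two-sided p of 0.029, the smallest that 4 against 4 libraries allow, or 0.11 after adjustment over the 4 ratios tested. For the same reason it is no separate result.

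The KIT pathway was followed as 56 genes, the receptor and ligand included, from adaptors and kinases to inhibitors. Of the 50 that were tested, 5 were higher in LP, Kit itself among them, and 2 lower, or 14% called, beside 24.7% of all tested genes. Their median log2 fold change was -0.13. The 6 genes left out by the filter were Pik3cd, Inpp5d, Ptpru, Socs1, Dok2 and Mmp9.

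Pik3r1 encodes the p85 alpha regulatory subunit of PI3 kinase, which docks to activated KIT. Its levels were 784, 711, 921 and 1008 CPM in LP and 55.7, 52.3, 103 and 92.8 CPM in M. The groups did not overlap, and the log2 fold change of 3.49 ± 0.27 (SE) had an adjusted p of 0.0001 in edgeR's quasi-likelihood test. Stat3, a transcription factor activated by cytokine receptors and kinases, ranged from 911 to 1244 CPM in LP and from 392 to 485 CPM in M, a log2 fold change of 1.30 ± 0.17. Lyn, a SRC family kinase that binds KIT, had 94.2 to 153 CPM in LP and 18.5 to 44.0 CPM in M, a log2 fold change of 1.85 ± 0.28. Plcg1, the gene of phospholipase C gamma 1, was also called higher, with a log2 fold change of 1.57.

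The 2 lower genes act in the MAP kinase branch and in receptor removal. Braf, a kinase downstream of RAS, had 58.4 to 81.3 CPM in LP and 95.7 to 165 CPM in M, a log2 fold change of -0.83 ± 0.19 with an adjusted p of 0.011 in edgeR's quasi-likelihood test. Cblb, an E3 ubiquitin ligase that limits tyrosine kinase signalling, had 9.02 to 21.1 CPM in LP and 31.0 to 105 CPM in M, a log2 fold change of -1.76 ± 0.42.

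**Figure D2:**
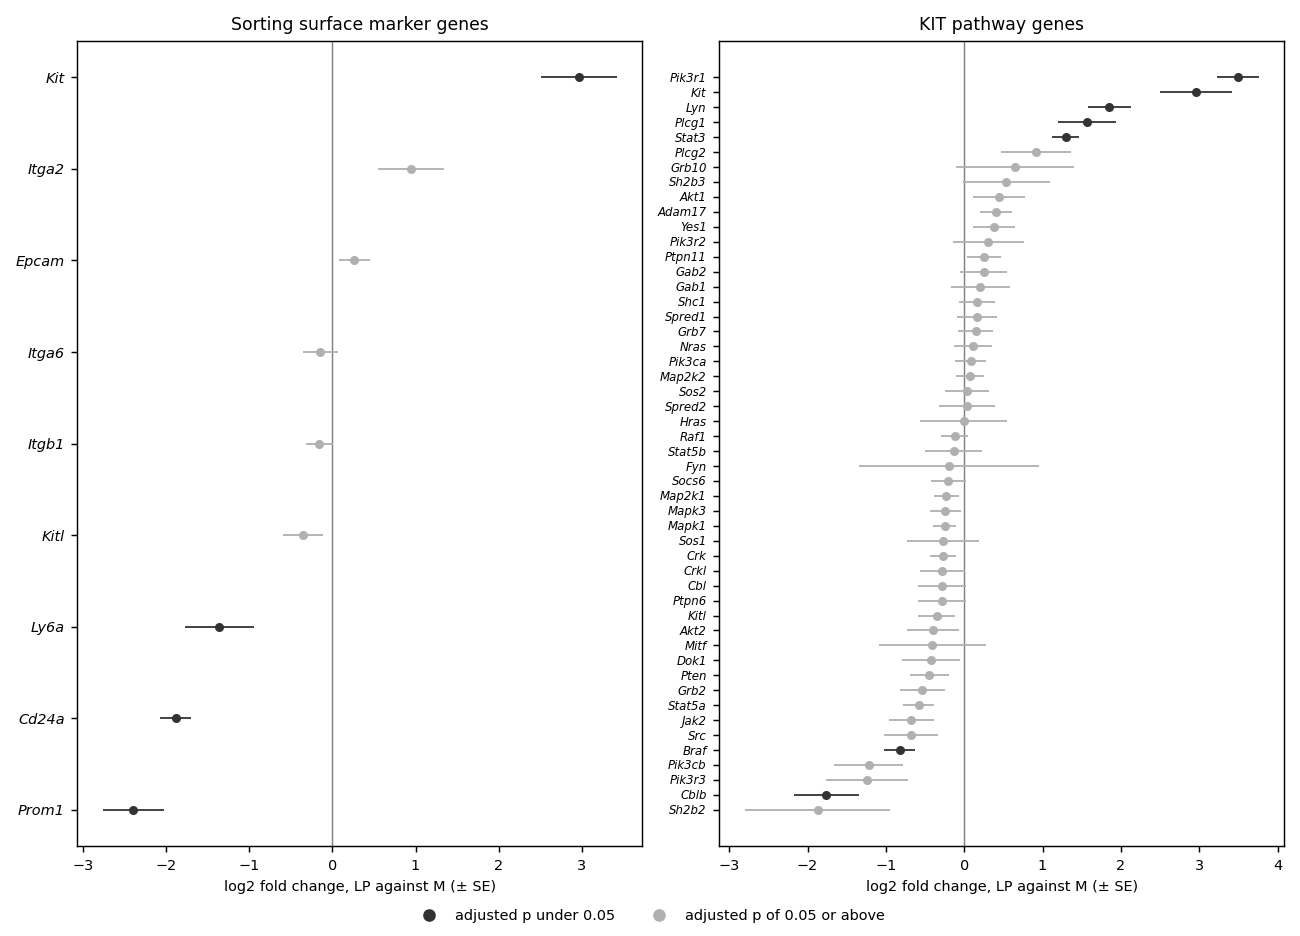
Log2 fold changes of LP against M with their SE (horizontal lines), for the 9 tested sorting marker genes on the left and the 50 tested KIT pathway genes on the right; black points had an adjusted p under 0.05 in edgeR's quasi-likelihood test and grey points did not. On the right, most of the pathway lies in grey around 0, with Pik3r1 at 3.49 and Kit at 2.96 at the top.

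Among the adhesion receptors, CD49f is the alpha 6 integrin subunit encoded by Itga6 (Entrez Gene 16403, chr2:71786886-71858427), and it pairs with the beta 1 or beta 4 subunit to bind laminin. Itga6 measured 56.0, 61.0, 89.8 and 77.0 CPM in LP and 69.2, 101, 64.0 and 79.9 CPM in M. The libraries overlapped, with a log2 fold change of -0.14 ± 0.21 (SE) and an adjusted p of 0.66 in edgeR's quasi-likelihood test. Itgb1 (Entrez Gene 16412, chr8:128685654-128733579), the common partner of many alpha subunits, measured 294, 340, 392 and 445 CPM in LP and 414, 439, 419 and 365 CPM in M. Its groups overlapped too, with a log2 fold change of -0.16 ± 0.17 and an adjusted p of 0.54.

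Itga2 and Itgb3 encode CD49b and CD61, which have been used to divide or mark luminal progenitors. Itga2 (Entrez Gene 16398, chr13:114833081-114932100) had 62.1, 25.4, 68.2 and 52.9 CPM in LP and 50.3, 22.3, 17.3 and 18.1 CPM in M. LP replicate 2 was low and M replicate 1 was high, so that the groups overlapped. The log2 fold change of 0.94 ± 0.40 (SE) was not called in edgeR's quasi-likelihood test, with an adjusted p of 0.11. Leaving out M replicate 1 turned this into a call, with a log2 fold change of 1.46 and an adjusted p of 0.015. The log2 ratio of Itga2 to Itga6 counts differed by 1.15 between the groups, with an exact permutation p of 0.086, or 0.17 after adjustment over the 4 ratios.

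Itgb3 (Entrez Gene 16416, chr11:104608000-104670476) was the member with the fewest reads. Its counts were 13, 71, 22 and 0 in LP and 0, 0, 4 and 0 in M. Reads lay mostly in LP, but 1 LP library had none and the libraries overlapped. A library without a read allows up to 3 counts, for counting error only. The gene was tested only where a fit kept it, in 6 of the 18 fits, with adjusted p-values from 0.024 to 0.11 in edgeR's quasi-likelihood test. It passed 0.05 in 2 of them, without LP replicate 4 and without M replicate 3. Those fits dropped the LP library without a read or the only M library with reads. Except in the fit with no filter, the gene was kept through the LP libraries that hold its reads. These p-values are therefore no support for a difference. The log2 ratio of Itgb3 to Itgb1 counts, with 0.5 added to each count, differed by 3.54 between the groups, with an exact permutation p of 0.14, or 0.19 after adjustment over the 4 ratios. CD61 as a surface marker is a protein, and a low RNA count gives no measure of it.

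Of the 26 integrin genes, 16 were tested, with 1 called higher in LP and 4 lower, beside 10.9% and 13.8% of all tested genes, and a median log2 fold change of -0.16. Itga8, whose alpha 8 subunit pairs with beta 1, was the one higher gene. It had 161, 223, 180 and 180 CPM in LP and 5.06, 7.35, 14.4 and 18.1 CPM in M, a complete separation of the groups. This gave a log2 fold change of 4.03 ± 0.36 (SE), with an adjusted p of 0.00017 in edgeR's quasi-likelihood test. On the lower side, Itgav, the alpha subunit that pairs with beta 3 and several other beta subunits, had 74.0 to 108 CPM in LP and 199 to 226 CPM in M, a log2 fold change of -1.30 ± 0.16. Itga9 had 56.9 to 61.8 CPM in LP and 108 to 130 CPM in M, a log2 fold change of -0.99 ± 0.14. Neither gene's groups overlapped.

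Itga5, the alpha subunit of the classical fibronectin receptor, was low throughout, at 0 to 1.66 CPM in LP and 6.64 to 10.3 CPM in M, with a log2 fold change of -2.95 ± 0.78. Its adjusted p of 0.019 in edgeR's quasi-likelihood test became 0.051 without M replicate 1. Itgb4, the partner of Itga6 in the laminin receptor of hemidesmosomes, had 8.05 to 20.04 CPM in LP and 20.5 to 34.2 CPM in M, a log2 fold change of -0.97 ± 0.32. The call of Itgb4, at an adjusted p of 0.046, was lost without LP replicate 2, 3 or 4 or M replicate 1, 2 or 3, where it ranged up to 0.11. Neither of the subunits that pair with Itga6 was called higher in LP.

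**Figure D3:**
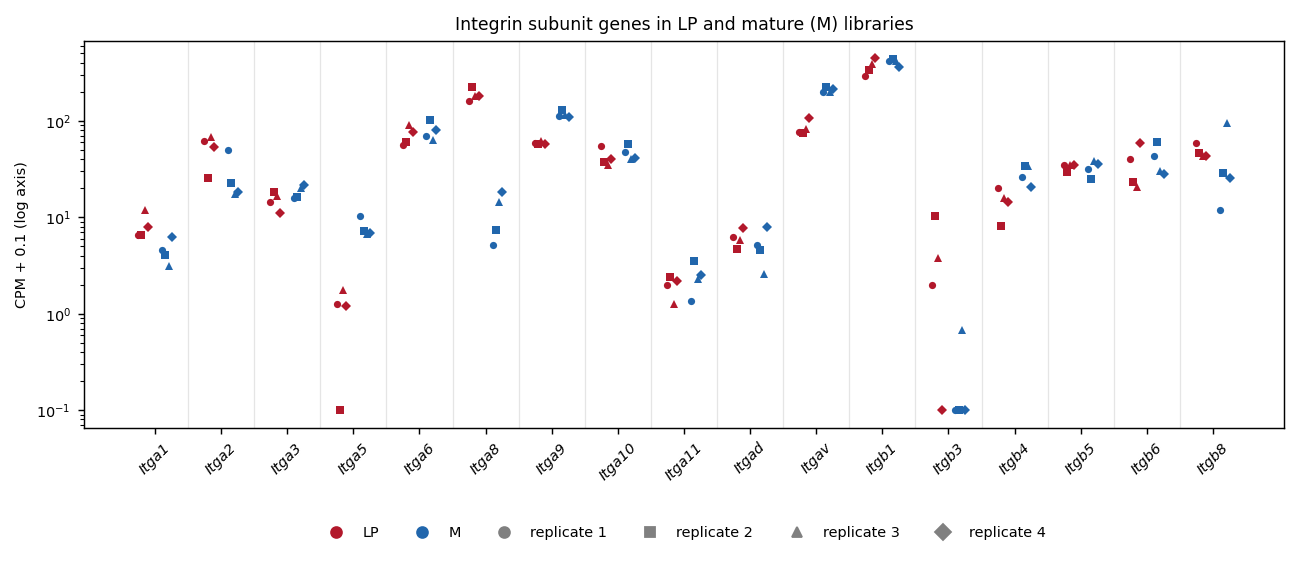
CPM with 0.1 added, on a log axis, for the 16 tested integrin genes and for Itgb3, with 1 point per library, LP in red, M in blue and a marker shape for each replicate number. Itga8 stands apart upward in LP, Itga5, Itga9 and Itgav downward, while Itga6 and Itgb1 overlap; points at the bottom are libraries with no read.

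EPCAM is a homophilic adhesion protein of epithelial cells, and both fractions were sorted with it. Epcam (Entrez Gene 17075, chr17:87635979-87651127) measured 2289, 2261, 1925 and 2570 CPM in LP and 1595, 1778, 1870 and 2287 CPM in M. The groups overlapped. Its log2 fold change was 0.26 ± 0.19 (SE), with an adjusted p of 0.33 in edgeR's quasi-likelihood test. Cldn7, a claudin that binds EPCAM directly, had 166 to 265 CPM in LP and 161 to 257 CPM in M, with a log2 fold change of -0.01. Its sign is not stable, since leaving out LP or M replicate 1 or 2 turned it.

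A list of 27 partners of EPCAM and relatives of the other markers held 21 tested genes, 4 called higher in LP and 6 lower, beside 10.9% and 13.8% of all tested genes, with a median log2 fold change of -0.01. Among the higher ones, the tetraspanin Cd81 rose from 449 to 919 CPM in M to 2682 to 3710 CPM in LP, a log2 fold change of 2.25 ± 0.26 (SE) with an adjusted p of 0.00043 in edgeR's quasi-likelihood test. Lypd3, a LY6 family protein, had a log2 fold change of 1.31 and the hyaluronan receptor Cd44 one of 1.10. Tspan8, a tetraspanin that complexes with EPCAM, had a log2 fold change of 3.12 with an adjusted p of 0.033, which was lost without LP replicate 1, 2 or 4 or M replicate 2 or 4 (0.064 to 0.077). Without M replicate 3 its log2 fold change was 4.23.

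Cldn4, a tight junction claudin, had 2955, 2160, 2834 and 3034 CPM in LP and 19164, 22274, 4493 and 6531 CPM in M. Every M library was above every LP library, but M replicates 1 and 2 were far above the other M libraries. The difference was a log2 fold change of -2.26 ± 0.48 (SE), with an adjusted p of 0.0067 in edgeR's quasi-likelihood test. Without LP replicate 4 the calls on this list fell from 10 to 6, 3 in each direction.

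The members lower in LP were 3, and all are used as surface markers of the epithelium or of its mature cells. Cd24a (Entrez Gene 12484, chr10:43579169-43584265) encodes a small, heavily glycosylated protein anchored in the membrane by a lipid. It measured 153, 113, 159 and 110 CPM in LP and 531, 483, 395 and 570 CPM in M. All 4 LP libraries lay below all 4 M libraries, and the spread within each group was small, with coefficients of variation of 19.2% and 15.3%. The log2 fold change was -1.89 ± 0.19 (SE), or 3.70-fold, and the adjusted p in edgeR's quasi-likelihood test was 0.00027, the smallest of the 9. With 1 library left out at a time, the log2 fold change stayed between -1.98 and -1.78 and each fit called it.

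Prom1 (Entrez Gene 19126, chr5:43993621-44102047) encodes a membrane protein of cell protrusions. Its level was 65.5, 62.7, 26.4 and 42.7 CPM in LP and 171, 179, 253 and 435 CPM in M. No LP library reached the lowest M library, and M replicate 4 was the highest. Prom1 had a log2 fold change of -2.39 ± 0.36 (SE), or 5.26-fold, with an adjusted p of 0.0014 in edgeR's quasi-likelihood test. Its paralog Prom2 had 1.01 to 17.0 CPM in LP and 19.9 to 63.1 CPM in M, a log2 fold change of -2.60 ± 0.71. The adjusted p of Prom2, 0.022, rose to between 0.058 and 0.062 without LP replicate 3, LP replicate 4 or M replicate 1, and without LP replicate 1 the log2 fold change was -3.77.

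Ly6a (Entrez Gene 110454, chr15:74994877-74998031), the gene of Sca-1, was the least stable of the 4 calls. Its level was 447, 213, 294 and 621 CPM in LP and 1375, 1421, 428 and 820 CPM in M. M replicate 3 fell inside the range of LP, so that the groups overlapped. The log2 fold change was -1.36 ± 0.41 (SE), with an adjusted p of 0.034 in edgeR's quasi-likelihood test. The call was lost without LP replicate 1, 2 or 3 or M replicate 1 or 2, at adjusted p-values of 0.068 to 0.093, while the direction held in every fit. Sca-1 is also carried by stromal and endothelial cells. The 6 fibroblast markers summed to 41.7, 30.6, 27.6 and 7.35 CPM in LP and to 138, 179, 28.3 and 27.0 CPM in M, and M replicates 1 and 2 were the highest M libraries both for this sum and for Ly6a. Dcn alone made 132 and 154 CPM of the sum in those libraries, where Col1a1 had no read, and 0 of the 4 tested fibroblast markers were called. The 6 endothelial markers summed to 6.66 to 12.8 CPM in LP and to 12.9 to 48.1 CPM in M, with the maximum in M replicate 3. Of that maximum Vwf made 37.5 CPM. Vwf was called lower in LP, at a log2 fold change of -3.39, and was the 1 call among 3 tested endothelial markers. Pecam1 was not called, Kdr had no read, and Cdh5 and Emcn reached at most 0.452 and 0.166 CPM in any library. The part of either in the level of Ly6a was not tested. The level of Prom1 relative to Ly6a differed between the groups by -1.05 on the log2 scale of counts, with an exact permutation p of 0.23, so that no difference between the 2 markers was detectable.

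Ly6a lies in a cluster of LY6 genes, which encode small proteins held on the surface by lipid anchors. Within 300 kb of it the annotation gives 24 protein-coding genes, of which 23 were in the table and 10 were tested. Besides Ly6a, 4 of the 9 other tested genes were lower in LP, Ly6c1, Ly6d, Ly6k and Ly6m, each a LY6 gene, beside 13.8% of all tested genes. Ly6m was near the floor, at 0 to 0.726 CPM in LP and 2.36 to 6.33 CPM in M. The groups overlapped for Ly6k, at 3.49 to 16.5 CPM in LP and 10.8 to 52.3 CPM in M. Ly6d, also a luminal surface marker, had 2544, 1875, 1301 and 1312 CPM in LP and 8874, 8789, 1793 and 5696 CPM in M, with M replicate 3 within the LP range. Its log2 fold change was -1.84 ± 0.45 (SE), with an adjusted p of 0.013 in edgeR's quasi-likelihood test. Ly6c1 had 2.73 to 10.7 CPM in LP and 12.2 to 52.1 CPM in M, a log2 fold change of -2.37 ± 0.54. It is near-identical to Ly6c2, and how the authors' counting shared reads between them is not given in the sources used here. Ly6e, the nearest tested neighbour on one side, was not called, with 3010 to 3809 CPM in LP, 2138 to 3208 CPM in M and a log2 fold change of 0.21. Lynx1 and Jrk were called higher in LP, and Jrk was low, with 3.47 to 10.6 CPM in LP and no read in M. Kit, by contrast, had no tested gene within 300 kb.

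**Figure D4:**
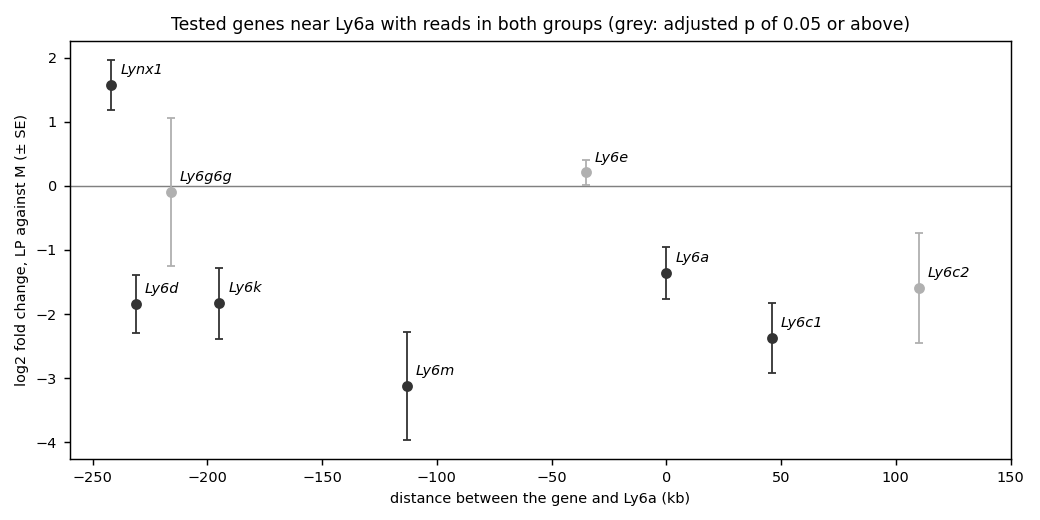
Log2 fold change of LP against M with its SE for the tested genes around Ly6a that had reads in both groups, against their distance from Ly6a in kb; black points had an adjusted p under 0.05 in edgeR's quasi-likelihood test. The called genes Ly6d, Ly6k, Ly6m, Ly6a and Ly6c1 lie below 0, and Lynx1 lies above it.

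Levels of different genes can be set against each other only per length of transcript, and they were divided by the exon length of each gene. In LP the mean order in CPM per kb was Epcam (1030), Ly6a (327), Itgb1 (90.1), Kit (73.7), Cd24a (51.9), Kitl (14.7), Itga6 (7.86), Itga2 (7.31), Prom1 (6.87) and Itgb3 (0.67). Neighbours in this order whose libraries overlapped were Itgb1 and Kit, Kit and Cd24a, Itga6 and Itga2, and Itga2 and Prom1. In M the order was Epcam (858), Ly6a (839), Cd24a (192), Itgb1 (100), Prom1 (36.2), Kitl (18.7), Kit (9.43), Itga6 (8.69), Itga2 (3.79) and Itgb3 (0.024). There the libraries of Epcam and Ly6a, Prom1 and Kitl, Kitl and Kit, and Kit and Itga6 overlapped. Kit thus moved from rank 4 in LP to rank 7 in M, and Prom1 from rank 9 to rank 5. Bowtie2 does not split reads across introns, so reads over exon junctions were missed to a degree that differs between genes, and these levels are approximate.

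Further surface proteins used to sort mammary or other epithelial cells gave 16 genes, 13 of them tested. Of these, 8 were higher and 2 lower in LP, beside 10.9% and 13.8% of all tested genes. Cd44 and Tspan8, among the higher ones, were also counted above with the partners of EPCAM. Cd14 encodes a protein that the labels name for this sort and the study lists in its general staining method. If CD14 was in the gate, the level of Cd14 describes the sort. Cd14 ranged from 12142 to 18322 CPM in LP and from 85.9 to 321 CPM in M. Its log2 fold change was 6.25 ± 0.48 (SE), with an adjusted p of 0.0001 in edgeR's quasi-likelihood test. Anpep, an aminopeptidase, had a log2 fold change of 3.42, with 364 to 422 CPM in LP and 10.2 to 90.2 CPM in M. The mucin Muc1 followed with 3.41. Without M replicate 3 these 2 values rose to 4.49 and 4.4. A log2 fold change of 3.15 was measured for Lgr6, a receptor for R-spondins. On the other side, Alcam, an adhesion molecule of the immunoglobulin family, had 45.7 to 73.2 CPM in LP and 175 to 253 CPM in M, a log2 fold change of -1.82. Cd200, a ligand that restrains myeloid cells, had 32.2 to 136 CPM in LP and 454 to 634 CPM in M, a log2 fold change of -2.62. The 3 genes left out by the filter were Procr, Thy1 and Enpep, markers of stem-like, basal or stromal cells.

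Genes whose log2 CPM ran most like that of 3 members over the 8 libraries were read among 5650 tested genes with a mean log2 CPM of at least 5. For Kit these were Acsl1, Atp2b1, Ogfrl1, Rhoj and Clmn, with Pearson's r of 0.998 to 0.991. In each of them M replicate 3 was the highest M library, as it was for Kit, which their choice by likeness to Kit favours. For Prom1 they were Gata3, Tead2, Kcnq5, Ccnl2 and Bex3, with r of 0.984 to 0.974, and for Ly6a they were Rab18, Ppme1, Eed, Arl6ip1 and Cdc42se2, with r of 0.972 to 0.957. These values describe 8 points in 2 groups that share their libraries, so a gene that only separates LP from M scores high too.

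The calls of Kit, Cd24a and Prom1 held with any 1 library left out, while that of Ly6a was lost without some libraries and Itga2 was called without M replicate 1. Of the 9 tested members the log2 fold change of Kit moved the most, from 2.96 to 3.67 without M replicate 3. A fit without both libraries of replicate 3, added once the values were known, left 4 of the members called, 1 higher and 3 lower in LP, among them Ly6a with an adjusted p of 0.025 in edgeR's quasi-likelihood test. In that fit the log2 fold changes of Kit, Cd24a and Prom1 were 3.51, -2.07 and -2.20.

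**Figure D5:**
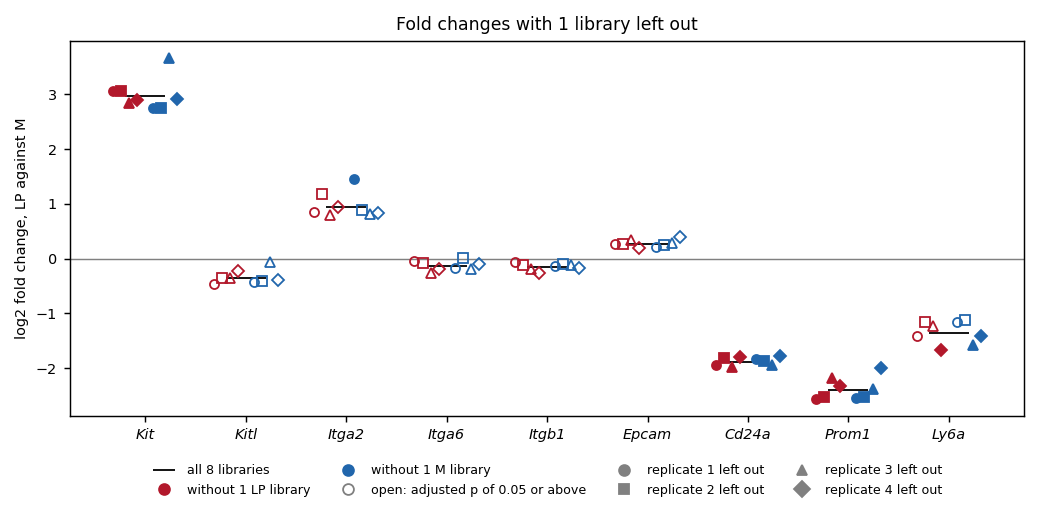
Log2 fold changes of the 9 tested members with all 8 libraries (black bars) and with 1 LP (red) or 1 M (blue) library left out, marker shapes giving the replicate left out and open symbols an adjusted p of 0.05 or above. Kit reaches 3.67 without M replicate 3, Itga2 has its one filled symbol without M replicate 1, and Ly6a has 5 open symbols.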

How the data were processed

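RNA was measured in 4 LP and 4 M libraries of mouse luminal cells. The authors deposited raw counts per gene, without normalization, by Entrez Gene ID. The submitters' processing notes name cutadapt 4.2, Bowtie2 2.3.5.1 and the builds mm10 and hg19, while the study's methods name mm10 for mouse reads and another Bowtie2 version, and the counting program and its use of strand are not given in the sources used here. Of 24594 IDs, 24570 matched RefSeq symbols and positions. Totals of 4410049 to 7791593 counts set the precision of low genes, and the limit given for a library without a read covers counting error only. Each SE came from the quasi-likelihood fit, which also takes in the spread between libraries. The study's methods state fewer biological replicates per condition for RNA-seq than the 4 in the table, and all 8 libraries were used. Replicates differed by more than counting noise (chi-square per degree of freedom of 11.95 to 89.0).

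Counts were filtered by edgeR's filterByExpr per group, scaled by TMM and compared by edgeR's quasi-likelihood test with Benjamini-Hochberg adjustment over 12816 genes (R 4.3.3, edgeR 4.0.16, limma 3.58.1, DESeq2 1.42.0, Python 3.11.15, pandas 2.3.3). The common biological coefficient of variation was 0.393. Ratios of genes in a library used counts with 0.5 added and a two-sided exact permutation test. The quasi-likelihood test was tried on simulated counts. Alternatives were other scaling factors, other filters, DESeq2, a likelihood ratio test, a replicate block, thinned counts and each library left out. One fit without replicate pair 3 was added after seeing the data.

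The members and gene lists were chosen with earlier results of these data known. Some genes of the lists are not reported here and were left out of the list counts, but not of the tests. Named were all members, fixed partners, and up to 4 genes per list and direction with the smallest adjusted p under 0.05. Plcg1, Ly6k, Ly6m, Lynx1 and Jrk were named after their values were seen.

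Replicate numbers are shared between LP and M in the labels, and sample names of the same number share a prefix whose meaning is not stated. Deviations from the group means correlated by 0.059 to 0.14 between libraries of the same number, not above 0.1 in every pair, so the libraries were treated as unpaired.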

Additional observations from a re-analysis of the deposited data

Results flagged for a closer look

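In 7 of 70 groups of 4 libraries, the highest or lowest library lay further from its nearest neighbour than Dixon's limit for 4 values, where chance gives about 1 in 20, or 3.5. Among the members, Kitl in M replicate 3 was at 165 CPM, above the other M libraries by 0.939 of the range. Itga2 in M replicate 1 was at 50.3 CPM, with a gap of 0.848. Itgb3 in M replicate 3 was at 0.577 CPM, while the other M libraries had no read. Among the partners, Itga5 in M replicate 1 was at 10.3 CPM, Anpep in M replicate 3 at 90.2 CPM, Cd81 in LP replicate 4 at 3710 CPM and Lypd3 in LP replicate 3, the lowest of its group, at 89.1 CPM. Of the 7, 3 were the highest M value and lay in M replicate 3, the library with the most LP marker RNA of its group. Their causes were not tested.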

How the results depend on the processing

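Over all tested genes, 3161 were called, against 2338 to 3791 under the alternatives. The members called were 4, against 3 to 5, the KIT pathway genes 7, against 7 to 9, and the integrin genes 5, against 4 to 6. The EPCAM partners and relatives were 10, against 6 to 10 with 1 library left out, the low value without LP replicate 4. Of 574 log2 fold changes of 34 named genes under the alternatives, 540 kept direction and call, 24 lost the call, 1 gained it and 9 changed sign. The changes of sign were all in genes that were not called. With 1 library left out, Itga6 ranged from -0.27 to 0.018 (positive without M replicate 2) and Cldn7 from -0.13 to 0.10 (positive without LP or M replicate 1 or 2). Cldn7 was also 0.021 with upper-quartile factors, 0.054 with no filter, 0.0038 when every library had to hold 10 counts, and 7.56e-05 with DESeq2. The cause was not tested. Itgb4 also lost its call with upper-quartile factors, with no filter and without replicate pair 3, at adjusted p-values of 0.052, 0.078 and 0.13.

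With a replicate block, 3027 genes were called, 4 members, 7 KIT pathway genes, 4 integrin genes and 9 partners; Itgb4 lost its call (adjusted p of 0.074) and Tspan8 moved to 4.16. The differences of the paired ratios were 3.54 for Kit to Kitl, 3.54 for Itgb3 to Itgb1, 1.15 for Itga2 to Itga6 and -1.05 for Prom1 to Ly6a. With all 4 pairs complete, these equal the unpaired differences by arithmetic, so only the p-values could change. In a sign-flip test, 4 pairs allow no p under 0.125. As a hint from the data and not the design, every LP library correlated best with the M library of its own number, as did 3 of 4 M libraries. Itgb3 had 0 counts in 4 libraries. These include the library with the largest total, M replicate 1, and the one with the smallest, M replicate 2. The cause was not tested.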
